A study of Mus musculus with 9 samples.

Results

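The serine/arginine-rich (SR) splicing factors were examined as a family of 10 genes, *Srsf1* to *Srsf7* and *Srsf9* to *Srsf11*, taken by their symbols from the GENCODE M1 annotation. All 10 are listed in both deposited expression tables, among the 13259 genes that both tables hold. The RNA came from AML12, an established line of mouse hepatocytes, collected on day 5 after lentiviral infection. There were 9 libraries, 3 each carrying a control hairpin (Ctrl), a first hairpin against *Srrm2* (sh1) or another hairpin against the same gene (sh2). All cells were grown with insulin-transferrin-selenium supplement and dexamethasone, so each group shares these agents and a viral infection, and the labels give neither the sequence of the control hairpin nor whether replicates are separate cultures.

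SR proteins bind short motifs in exons through an RNA recognition motif (RRM) at the amino end and contact other splicing factors through a carboxy-terminal domain rich in arginine-serine (RS) repeats. Kinases of the Clk and Srpk families phosphorylate the RS domain, which releases SR proteins from nuclear speckles (NSs) and directs their import into the nucleus. Srrm2, the protein depleted in this study, is itself a large RS-rich protein that scaffolds NSs. Many SR genes regulate their own mRNA by including an exon with an early stop codon, which sends the transcript to nonsense-mediated decay.

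Expression is given by the authors' mean normalized count, which pools the libraries of a comparison. By its header and the sample labels, the sh1 table pools Ctrl with sh1 libraries and the sh2 table pools Ctrl with sh2 libraries. The labels of 2 Ctrl libraries also name tables of hairpins that are not among these samples, so which Ctrl libraries entered each mean is not settled. No value of a single library or a single group was used, so neither a replicate error nor a difference between knockdown and control cells is given for any gene. The means therefore answer how much RNA each SR gene gave in these cells. They also give how far the pooled level differed between the sh1 table and the sh2 table. Counts of bulk RNA do not separate the number of cells from the RNA per cell.

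The members share an RS domain beside the RRM. Stretches of its coding sequence from *Srsf1*, *Srsf2*, *Srsf3* and *Srsf9* are shown because they span the range from dense to sparse repeats. Each covers 30 codons, chosen as the window with the most RS or SR dipeptides in the longest coding transcript of the gene in GENCODE M1. They are written 5′ to 3′ in the sense of the mRNA, and capitals mark the codons that belong to such a dipeptide.
*Srsf1*, residues 203 to 232: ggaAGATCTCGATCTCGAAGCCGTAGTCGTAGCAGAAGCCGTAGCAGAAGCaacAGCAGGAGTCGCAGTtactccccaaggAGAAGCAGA
*Srsf2*, residues 127 to 156: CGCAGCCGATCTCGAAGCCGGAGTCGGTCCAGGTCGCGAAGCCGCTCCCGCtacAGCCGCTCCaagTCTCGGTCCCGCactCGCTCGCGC
*Srsf3*, residues 130 to 159: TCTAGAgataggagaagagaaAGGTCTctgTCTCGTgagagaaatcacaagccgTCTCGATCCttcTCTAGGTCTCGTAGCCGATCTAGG
*Srsf9*, residues 172 to 201: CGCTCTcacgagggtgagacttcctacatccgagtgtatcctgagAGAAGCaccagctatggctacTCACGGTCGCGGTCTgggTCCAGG
The windows of *Srsf1* and *Srsf2* hold 21 and 23 such dipeptides, that of *Srsf3* holds 12 and that of *Srsf9* holds 7. Over the whole protein, *Srsf2* encodes 52 dipeptides in 221 residues, or 23.5 per 100 residues. This is the highest density of the family, closely followed by *Srsf7* with 23.1. *Srsf9* is nearly as long with 222 residues but encodes 9 dipeptides, or 4.05 per 100 residues, which is the lowest. *Srsf4* has the most in number, with 106 in 496 residues. *Srsf11*, the longest protein with 511 residues, has 41. These values depend on the transcript chosen, the coding one with the most exon bases, and other isoforms were not compared. *Srsf10*, for instance, has 5 coding transcripts and is represented here by a product of 183 residues with 19 dipeptides. In each of the 10 proteins most dipeptides lie in the carboxy-terminal part, with between 65.1% (*Srsf4*) and 97.6% (*Srsf11*) of them past the midpoint.

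**Figure D1:**
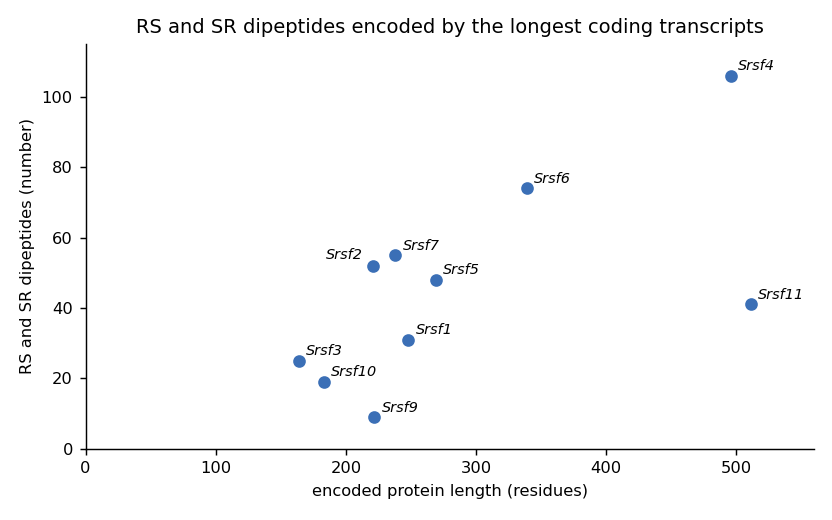
Number of RS and SR dipeptides (vertical axis) against the length in residues of the protein encoded by the longest coding transcript (horizontal axis), 1 point per SR gene. *Srsf4* stands highest with 106 dipeptides, and *Srsf9* lies lowest with 9 at nearly the length of *Srsf2*.

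Related members can differ in their RS repeats. *Srsf1* and *Srsf9* form the closest pair, with 161 identical positions, or 64.9% of the longer protein, although their dipeptide counts are 31 and 9. *Srsf5* and *Srsf6* share 52.8% and *Srsf4* and *Srsf6* share 46.8% of the longer protein. *Srsf2* and *Srsf7* share 45.0%. *Srsf3* and *Srsf7*, both adaptors in mRNA export, share 43.3%, and 64.0% of the 161 positions that could be aligned. How far aligned RS repeats add to these identities was not tested.

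*Srsf3* was the one member with an internal exon of a decay transcript that overlaps no coding-transcript exon and carries the stop codon. Its overlap with retained-intron transcripts was not checked. This exon has 456 bases and lies at chr17:29176399-29176854 on the + strand of mm9. Its reading frame, shown because it is the sequence that ends the decay isoform, runs for 34 bases at chr17:29176399-29176432, with the stop codon TGA in capitals.
*Srsf3* exon: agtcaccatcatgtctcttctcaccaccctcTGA
*Srsf2* has a further internal exon of 104 bases in a decay transcript, at chr11:116712962-116713065 on the - strand, which holds no part of the annotated reading frame. Transcripts labelled as targets of nonsense-mediated decay are annotated for 5 of the 10 SR genes (*Srsf1*, *Srsf2*, *Srsf3*, *Srsf5* and *Srsf11*), or 50%, beside 16.8% of the 11099 protein-coding genes whose mean reached 10 in both tables. The same 5 genes have transcripts with a retained intron, beside 35.1% of those protein-coding genes. The SR genes have a median of 5 annotated transcripts, beside 3 for those protein-coding genes, and the shares were not adjusted for this. *Srsf11* has the most transcripts, 15 in all, with 7 coding, 3 decay and 5 retained-intron forms, and *Srsf5* has 13. *Srsf7* has 3 transcripts, all coding. The deposited values count all of these forms together, so they give the summed output of a gene and not the level of mRNA that is translated.

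**Figure D2:**
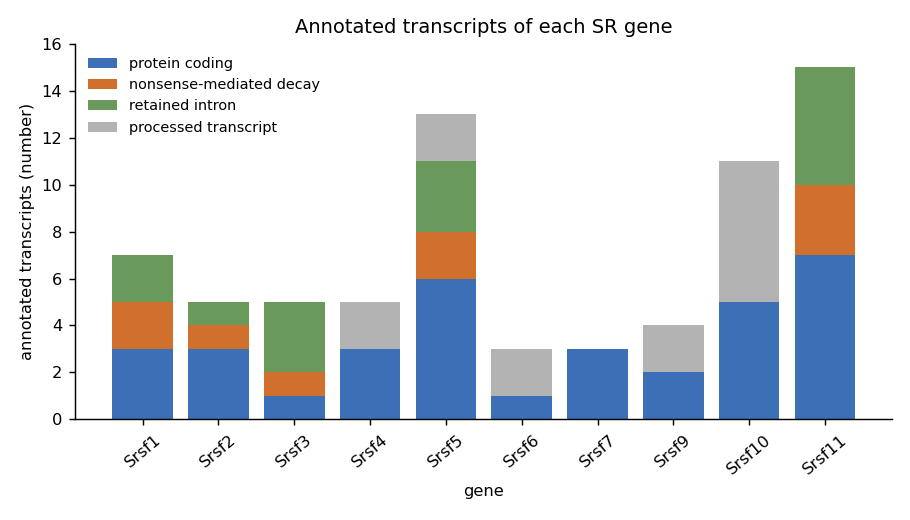
Number of annotated transcripts of each SR gene in GENCODE M1 (vertical axis), stacked by kind. *Srsf1*, *Srsf2*, *Srsf3*, *Srsf5* and *Srsf11* have decay and retained-intron forms, and *Srsf7* has coding forms alone.

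Per kilobase (kb) of merged exons, all 10 SR genes lay above the median gene. This did not hold for *Srsf4* when the longest coding transcript gave the length (percentiles 48.99 and 49.97 in the sh1 and sh2 tables), nor for *Srsf9* without division by length (42.6 and 41.3). Per kb of merged exons, the family median of the authors' mean normalized count was 162 in the sh1 table and 178 in the sh2 table. The medians of all genes whose mean reached 10 were 56.1 (11554 genes) and 58.2 (11627 genes). The median percentile of the 10 members was 81.2 in the sh1 table and 82.2 in the sh2 table. Together their means summed to 7240 and 7513 normalized counts, or 0.118% of the total of each table. From the highest to the lowest member, levels per kb spanned 5.18-fold in the sh1 table and 4.79-fold in the sh2 table.

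*Srsf2*, which encodes a splicing factor also called SC35, had the highest level per kb. The gene lies at chr11:116711215-116714408 on the - strand of mm9. Its mean normalized count was 948 in the sh1 table and 936 in the sh2 table, which gives 320 and 316 per kb, at percentiles 92.3 and 91.7. It supplied 18.6% and 17.8% of the family total per kb.

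*Srsf5* and *Srsf6*, which together with *Srsf4* encode the subgroup with a pair of RRMs and a long RS domain, followed. *Srsf5* (chr12:82046491-82051494) had a mean normalized count of 1059 in either table, or 266 per kb. *Srsf6* (chr2:162757264-162762857) had 984 and 1006, or 259 and 265 per kb. These neighbours lie close together, and with no replicate error their order is not settled. *Srsf4* (chr4:131429532-131457640), the member with the longest RS domain by its dipeptide count, had the lowest level of the family, with mean normalized counts of 221 and 236, or 61.7 and 66.0 per kb, at percentiles 53.2 and 54.0.

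*Srsf1* (chr11:87860875-87867257), a regulator of splice site choice, had the highest mean normalized counts before division by length, 1168 and 1201. Because its merged exons extend over 5710 bases, this is 205 and 210 per kb. Its closest relative *Srsf9* (chr5:115777186-115783089) had the lowest counts, 150 and 147. Over its short exons of 1360 bases this is 111 and 108 per kb, at percentiles 72.0 and 70.3. *Srsf1* thus had the higher level of the pair on either scale.

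*Srsf3* (chr17:29169618-29180311), the smallest member with 164 residues, had mean normalized counts of 920 and 1054, or 180 and 206 per kb. *Srsf7* (chr17:80599429-80606629), which carries a zinc knuckle beside its RRM, had 247 and 258, or 104 and 109 per kb. Per kb, *Srsf3* was the higher member of this export pair in both tables.

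*Srsf10* (chr4:135411662-135425823), known as a splicing repressor when it is dephosphorylated, had mean normalized counts of 520 and 544, or 74.3 and 77.6 per kb. *Srsf11* (chr3:157673437-157699603), a more distant SR protein, had 1023 and 1071, or 143 and 150 per kb. These members have the longest merged exons of the family, 7003 and 7135 bases, so their place depends on the length used. Divided by the length of the longest coding transcript instead, *Srsf11* had 329 and 345 per kb and *Srsf10* had 139 and 145.

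The length matters for other members as well. With coding transcripts, *Srsf5* led the family at 675 per kb in both tables, followed by *Srsf2* at 499 and 493 and *Srsf3* at 359 and 411. *Srsf4* remained the lowest at 71.3 and 76.2. *Srsf4* thus had the lowest level under both lengths, while the highest was *Srsf2* under one length and *Srsf5* under the other.

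**Figure D3:**
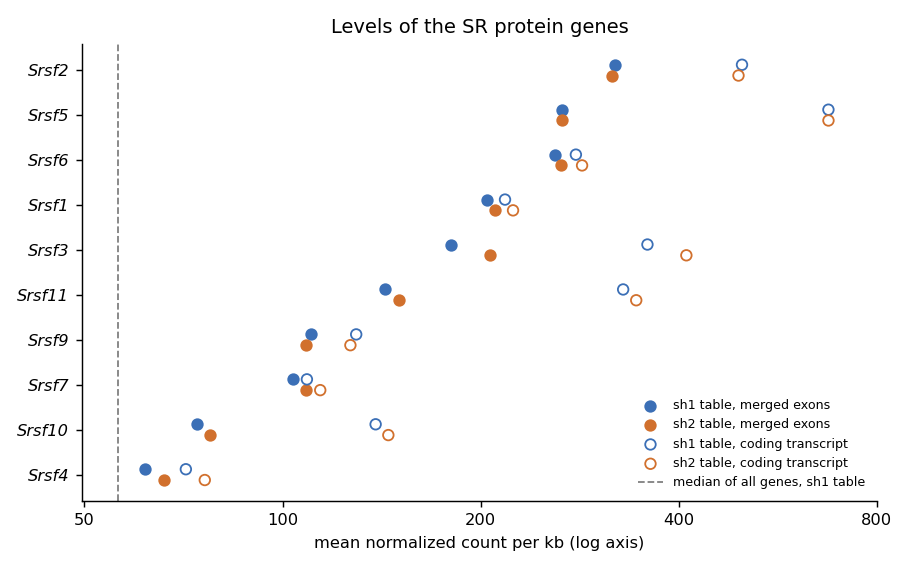
Authors' mean normalized count per kb (log axis) of each SR gene in the sh1 table (blue) and the sh2 table (orange), divided by the merged exons (filled) or by the longest coding transcript (open). The dashed line is the median of all genes per kb of merged exons in the sh1 table (56.1) and applies to the filled points, which all lie to its right. *Srsf4* is lowest under both lengths.

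Several members have similar copies elsewhere in the genome, which bears on counts of uniquely mapped reads. Off-locus stretches of at least 100 bases and 95% identity covered 86.5% of the longest coding transcript of *Srsf5*, 76.0% of that of *Srsf3* and 60.1% of that of *Srsf10*. The copy of *Srsf5* lies at chr4:129576316-129577680 with a mean identity of 98.3%, and that of *Srsf10* at chr12:114617625-114619876 with 97.2%. *Srsf3* has 4 such loci, of which the most extensive, on another chromosome, covers 76.0% of the transcript at 96.0% identity and that at chr11:98485682-98486975 covers 50.5% at 98.3%. *Srsf2* and *Srsf11* had 13.5% and 4.4% covered, and the other 5 members had none. The levels of *Srsf3*, *Srsf5* and *Srsf10* are thus uncertain, and how many reads they lost was not tested.

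A few members overlap genes on the opposite strand. *Srsf4* shares 1551 bases, 43.3% of its merged exons, with *Gm12992* on the opposite strand, whose mean normalized count was at most 12.4. *Srsf2* shares 293 bases, or 9.90%, with *Mfsd11* on the opposite strand, which had 274 and 265. *Srsf1* shares 98 bases with *Gm11508*. The libraries are described as strand-specific, but the strand setting of the counting is not given in the sources used here. How far these overlaps bear on the counts was not tested, so the place of *Srsf4* as the lowest member is uncertain.

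The SR genes had a higher median level than other RS-domain splicing regulators and a lower one than the hnRNP proteins, which often oppose SR proteins at splice sites. Per kb in the sh1 table, the median was 162 for the 10 SR genes, 109 for 32 other RS-domain regulators, 94.1 for 8 listed genes of SR protein kinases and their substrate importer, and 350 for 24 hnRNP proteins. Beside the SR range of 61.7 to 320, the RS-domain regulators ran from 14.9 (*Rsrc1*) to 502 (*U2af2*, the large subunit of the factor that binds the polypyrimidine tract). The kinases ran from 56.2 (*Clk2*) to 189 (*Clk3*), and the hnRNP proteins from 30.1 (*Hnrnph3*) to 1530 (*Hnrnpf*). *Srrm2* itself stood at 387 per kb, above each SR gene, although its pooled mean includes the libraries in which it was targeted. These levels are all per kb of merged exons, and levels per kb of coding transcript were not compared between the lists or with *Srrm2*. The lists overlap in range and no test of their difference was made.

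**Figure D4:**
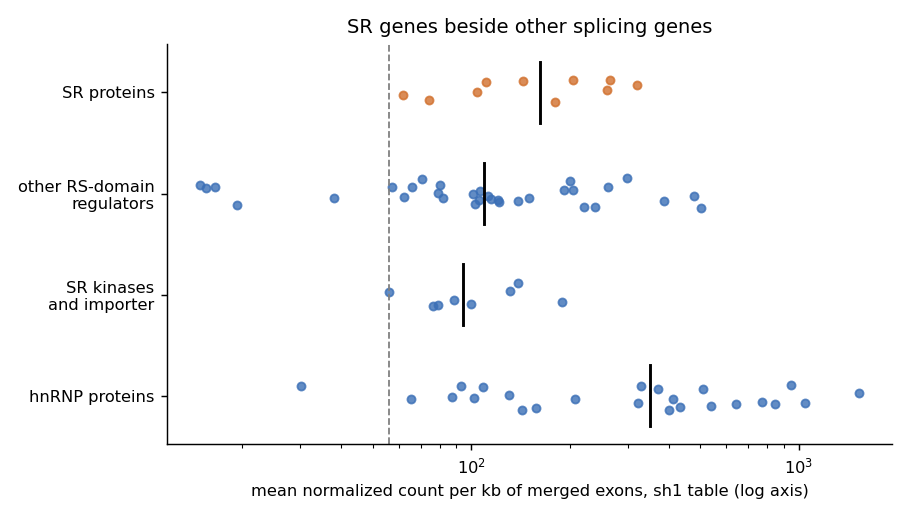
Authors' mean normalized count per kb of merged exons in the sh1 table (log axis) for the SR genes (orange) and 3 lists of other splicing genes (blue), 1 point per listed gene. Black bars mark list medians, from 94.1 for the kinases to 350 for the hnRNP proteins, and the dashed line marks the median of all genes.

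To see how far each pooled level differed between the tables, the mean in the sh2 table was divided by that in the sh1 table. The tables were normalized separately, and the median gene was higher in the sh2 table by 0.07 on the log2 scale, so each ratio was centred on that median. By the header both means include Ctrl libraries, but whether these are the same ones is not settled. Shared Ctrl libraries draw every ratio towards 1, and differing ones would add their own difference. A ratio near 1 is also what equal changes with both hairpins would give. Against this background, 0 of 10 SR genes had a centred ratio past 1.1-fold in either direction, where 36.0% of the 11451 genes whose mean reached 10 in both tables did. Among the 7757 genes whose mean reached 100, which all 10 members reach, 28.8% did. The median absolute log2 ratio was 0.04 for the members and 0.10 for the 11451 genes. The latter include genes with lower means than any member, and no median was taken among genes of like mean. No error could be attached to a ratio, so these counts describe the pooled means and test nothing.

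*Srsf3* had the largest centred ratio, 1.09-fold higher in the sh2 table (0.12 on the log2 scale), and 80.0% of genes had a lower ratio. Without centring it would pass the limit, at 0.20 on the log2 scale. *Srsf4* was the other member above 1, at 1.02-fold. *Srsf9*, *Srsf2* and *Srsf5* lay furthest below, at 0.932, 0.939 and 0.951 of the median gene. *Srsf6* and *Srsf1* had 0.972 and 0.978. *Srsf7*, *Srsf11* and *Srsf10* lay within 1% of the median gene, at 0.997, 0.996 and 0.994. Across all genes the centred log2 ratios had an SD of 0.20 and quartiles of -0.10 and 0.10. *Srsf3* lay further from the median gene than 59.3% of all genes and 69.3% of those within 2-fold of its mean, so its ratio is not among the small ones, and *Srsf9* and *Srsf2* lay near the middle of that order.

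**Figure D5:**
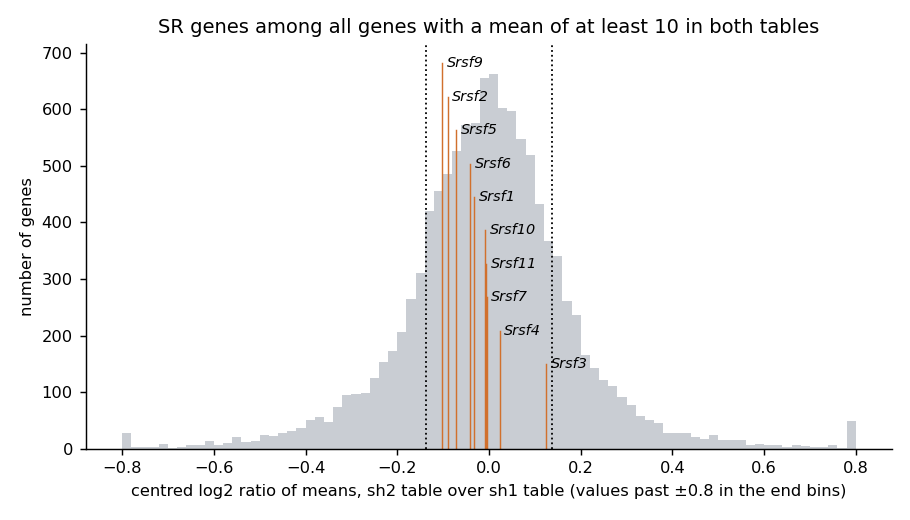
Histogram of the centred log2 ratio of the authors' means, sh2 table over sh1 table, for the 11451 genes whose mean reached 10 in both (grey), with each SR gene as an orange line of arbitrary height. All 10 lines stand between the dotted limits of 1.1-fold, with *Srsf9* furthest left and *Srsf3* furthest right.

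By the header both tables pool Ctrl libraries, and any that are shared draw the family shares towards each other. How far the composition of the family changed was therefore not tested. The largest shift in share was that of *Srsf3*, from 10.4% to 11.6% of the family total per kb, and the next was that of *Srsf2*, from 18.6% to 17.8%. *Srsf1* held 11.9% in both. The other members shifted less.

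Other genes of the splicing machinery gave few ratios past the limit, beside 36.0% of all genes whose mean reached 10 in both tables. Among genes whose mean reached 100, 28.8% passed. None of the 8 genes for kinases or the importer did. Of the 32 other RS-domain regulators, *Scaf4* was higher in the sh2 table at 1.12-fold, and *Srrm1*, a partner of Srrm2 in a splicing coactivator complex, and *Zrsr1* were lower at 0.907 and 0.870. Of the 24 hnRNP proteins, *Ptbp2*, a repressor of exons that is best known from neurons, was higher at 1.54-fold with mean normalized counts of 220 and 354, *Hnrnpa1* was higher at 1.22-fold and *Ptbp1* lower at 0.904. *Srrm2* had mean normalized counts of 3428 and 3759 and a centred ratio of 1.04. As a pooled mean this does not show the knockdown, which was not checked here.

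As a check of the cell type, all 10 hepatocyte markers looked for were listed. In the sh1 table *Apob* was at 20190 and *Alb* at 2151, while *Apoa1* was at 39.4 and *Cps1* at 26.2. Of 10 markers of macrophages, endothelial and stellate cells, 3 were listed, at means of 5.30 (*Ptprc*), 25.1 (*Cd68*) and 8.03 (*Des*). Of the hepatocyte markers, 5 of 10 were past the limit, beside 36.0% of all genes in either direction, and each was lower in the sh2 table. These were *Fgb* at 0.659, *Cps1* at 0.725, *Alb* at 0.802, *Krt18* at 0.865 and *Krt8* at 0.899. Inside the limit, *Apob* at 1.065, *Hnf4a* at 1.031, *Trf* at 1.022 and *Ttr* at 1.005 lay above the median gene. *Apoa1* lay below it at 0.939. The list median was -0.12 on the log2 scale, beside -0.02 for the SR genes. *Cd68*, the one marker of the other cell types with a mean over 10, was higher at 1.13-fold. The part of these markers in the SR values was not tested.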

How the data were processed

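Strand-specific, polyA-enriched libraries were described for 9 samples of AML12 cells in 3 groups (Ctrl, sh1 and sh2), assigned by sample titles. The authors trimmed reads, aligned them to mm9 with TopHat2, retained unique concordant pairs, used HTSeq for counts on GENCODE M1 and DESeq2 version 1.8.2 for normalization and tests. The values used are the authors' deposited mean normalized counts, a signal pooled over the libraries of a comparison, with 13424 and 13478 genes in the sh1 and sh2 tables, which sum to 6144608 and 6393456. The remaining columns hold the authors' own fold changes, standard errors, test statistics and p-values, and none of them was used. No depth of a library was used, so precision is unknown.

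All gene identifiers matched GENCODE M1 on NCBIM37, the assembly of mm9. Levels were divided by merged exons, and percentiles taken among genes whose mean reached 10. The log2 ratio of the means was centred on its median and read against a limit of 1.1-fold. It was checked on simulated data with far less spread than these data. The check does not show how the limit behaves at the spread seen here. Dipeptides and identities (global alignment, BLOSUM62) used the translated longest coding transcript, by exon bases, and genomic copies (BLAST 2.17.0) used its bases. *Srsf12*, a relative in the list of other RS-domain regulators, *Srpk2* and *Srpk3* are not listed in the tables. Symbols not in the annotation were matched through RefSeq synonyms. The members and lists were chosen with earlier results of these data known. Named were all members, *Srrm2*, the highest and lowest gene of each list, list genes past the limit, marker genes of the cell type check and genes overlapping a member. Alternatives were other lengths, gene sets, minimum means, centring and limits. Python 3.11.15, numpy 2.4.6, pandas 2.3.3, Biopython 1.88, pysam 0.24.0 and matplotlib 3.10.9 were used.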

Additional observations from a re-analysis of the deposited data

How the results depend on the processing

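No paired analysis was possible because the values used pool the libraries of both groups, and for the same reason no replicate could be left out. The median percentile of the SR genes stayed between 80.7 and 85.2 in both tables when protein-coding genes alone were ranked, when no minimum mean was set and when the longest coding transcript gave the length. Without division by length it was 87.6 in the sh1 table and 87.6 in the sh2 table. The number of SR genes past the limit was 0 with a limit of 1.2-fold, where 13% of all genes passed. It was also 0 with a minimum mean of 100, where 28.8% passed. With a looser limit of 0.07 on the log2 scale it was 4, where 63.2% of all genes passed. It was 1 when the tables were scaled by their summed means (36.4% of all genes) and 1 with no centring (42.7%). The 1 gene was *Srsf3* in both cases, which lies just inside the limit. Another centring moved all log2 ratios by at most 0.07. With the coding transcript as length, 14 of 20 levels per kb moved by over 1.1-fold, and 18 of 20 family shares did. With only pooled means, no replicate error bounds any of these values.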
